A study of Mus musculus with 6 samples.

Results

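The mitochondrial ribosomal proteins are the nuclear-encoded proteins of the ribosome that works inside mitochondria. The members were all genes whose symbol is Mrpl or Mrps followed by digits and at most 1 letter, without pseudogenes (-ps), with a mean raw count of at least 10 per library. The rule found 78 genes among the 52740 gene rows of the deposited table, 49 of the large subunit (Mrpl) and 29 of the small subunit (Mrps). The count minimum removed none of them: mean raw counts ran from 83.8 for Mrpl23 to 1677 for Mrpl12, with a median of 393. They were measured by RNA-seq in C2C12 cells, a mouse myoblast line, transfected with an siRNA against Cox7a2l (siCOX7A2L, 3 libraries) or with a random control siRNA (siCTRL, 3 libraries). Per the labels, both groups were kept in growth medium with fetal bovine serum, both were transfected with the same lipid reagent, and total RNA was depleted of ribosomal RNA before library preparation. The labels used here give neither the time from transfection to harvest nor how many siRNA sequences were used. Cox7a2l encodes a factor that links complexes of the respiratory chain into supercomplexes, and the title of the series concerns those supercomplexes and the differentiation of myoblasts.

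The mitochondrial ribosome translates the small set of messages transcribed from mitochondrial DNA, all of which encode subunits of the respiratory chain and of ATP synthase. Its RNAs come from mitochondrial DNA, while its proteins are translated in the cytosol, imported and assembled onto those RNAs. The small subunit binds the message and decodes it, and the large subunit joins the amino acids and releases the new chain through an exit tunnel held against the inner membrane. Many of its proteins have counterparts in the bacterial ribosome and many others are particular to mitochondria, and muscle depends on its output for oxidative metabolism.

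The genes are scattered over 17 chromosomes, with at most 11 on one. RefSeq promoter windows (GRCm38.p6, 250 bases before to 50 bases after the start) were matched by symbol for 69 members, 43 of the large and 26 of the small subunit. Both strands were searched, and a gene was counted if any of its windows held the word. CCGGAAG, a core word of ETS-family sites, stood in 26 members (37.7%), against 20.1% of 10079 tested genes and 9.93% of 27025 in the table. GCATGCGC, a core word of Nrf1 sites, stood in 8 (11.6%), against 5.91% of tested genes and 3.05% of the table. AAGATGGCG, a word of Yy1 sites, stood in 8 (11.6%), against 3.64% and 1.64%. At least 1 of the 3 words stood in 36 members (52.2%), against 27.1% of tested genes and 13.6% of the table. The windows of 4 members held both the ETS and the Nrf1 word, 2 held the ETS and the Yy1 word, and 0 held the Nrf1 and the Yy1 word. The last 3 letters of the ETS word are the first 3 of the Yy1 word, and 0 members' windows held the words overlapping there. A match is a description of the letters only. The windows of 4 members, picked after the values were seen, show the arrangements, with the words in capitals. Mrpl57, with the largest positive log2 fold change of the members, has 1 ETS word (chr14:57825989-57826288, plus strand), and Mrpl52, with the highest level, has the ETS word repeated (chr14:54426659-54426958, plus strand). Mrpl32 has the Nrf1 word at several places, once as a stretch that reads as the word on both strands (chr13:14612988-14613287, minus strand), and Mrps27 an ETS and a Yy1 word (chr13:99344536-99344835, plus strand).
Mrpl57: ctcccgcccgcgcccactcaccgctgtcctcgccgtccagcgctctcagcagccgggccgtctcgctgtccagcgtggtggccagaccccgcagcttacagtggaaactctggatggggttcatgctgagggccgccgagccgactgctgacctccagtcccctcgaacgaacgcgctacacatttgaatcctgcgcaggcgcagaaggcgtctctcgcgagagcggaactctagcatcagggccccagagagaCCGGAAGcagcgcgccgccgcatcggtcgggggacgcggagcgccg
Mrpl52: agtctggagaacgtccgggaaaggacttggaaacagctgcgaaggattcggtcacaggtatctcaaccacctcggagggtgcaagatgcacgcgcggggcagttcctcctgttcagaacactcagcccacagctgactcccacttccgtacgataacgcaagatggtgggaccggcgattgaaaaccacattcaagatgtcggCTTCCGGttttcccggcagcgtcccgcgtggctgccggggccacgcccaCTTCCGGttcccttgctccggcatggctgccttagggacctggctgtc
Mrpl32: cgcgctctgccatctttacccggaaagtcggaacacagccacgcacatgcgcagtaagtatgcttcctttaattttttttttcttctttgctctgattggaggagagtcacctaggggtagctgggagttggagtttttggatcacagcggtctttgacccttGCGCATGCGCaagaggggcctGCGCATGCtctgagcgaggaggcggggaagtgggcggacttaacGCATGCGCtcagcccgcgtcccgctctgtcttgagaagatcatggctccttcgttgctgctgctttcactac
Mrps27: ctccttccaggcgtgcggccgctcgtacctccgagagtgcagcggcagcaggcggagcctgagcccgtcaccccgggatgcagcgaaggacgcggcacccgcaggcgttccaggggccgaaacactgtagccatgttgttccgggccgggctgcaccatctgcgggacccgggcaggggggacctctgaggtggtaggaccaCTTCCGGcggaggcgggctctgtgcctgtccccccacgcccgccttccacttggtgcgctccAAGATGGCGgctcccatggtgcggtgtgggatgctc

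Library totals ran from 9890218 counts (siCOX7A2L replicate 3) to 17077826 counts (siCTRL replicate 3). Cox7a2l itself had 6.72, 5.90 and 3.59 CPM (counts scaled to library depth) in siCOX7A2L cells, against 58.0, 59.5 and 58.9 CPM in siCTRL cells (log2 fold change -3.44, SE 0.19, adjusted p = 1.9e-05 in edgeR's quasi-likelihood test). Replicate 3 stood apart in both groups: protein messages of mitochondrial DNA took 1.61% of counts in replicate 3 of siCOX7A2L and 2.78% in replicate 3 of siCTRL, against 0.589% to 0.616% in the other 4 libraries. The replicate number was a block in the fit. The myoblast marker Myod1 had 118, 126 and 161 CPM in siCOX7A2L cells, against 130.2, 127 and 134 CPM in siCTRL cells. Des, muscle desmin, was above 700 CPM in all 6 libraries. Of the other myoblast markers, Cdh15 had 231.8, 212.7 and 435.5 CPM in siCOX7A2L cells, against 221.1, 216.2 and 348.1 CPM in siCTRL cells. Pax7 had 24.15, 26.26 and 66.37 CPM in siCOX7A2L cells, against 25.68, 26.01 and 49.5 CPM in siCTRL cells. Myf5 had 79.6, 44.94 and 58.39 CPM in siCOX7A2L cells, against 56.58, 58.84 and 32.98 CPM in siCTRL cells. Myf6 was low, at most 1.235 CPM. Of the 3 macrophage markers, Adgre1 was at 0 in all 6 libraries, Ptprc was at most 0.0634 CPM and Cd68 had 0.983 to 2.92 CPM in siCOX7A2L cells and 1.32 to 3.13 CPM in siCTRL cells. The 4 endothelium and adipocyte markers were at most 0.898 CPM. The 4 fibroblast markers summed to 24.9, 25.6 and 55.7 CPM in siCOX7A2L cells, against 16.8, 18.2 and 23.4 CPM in siCTRL cells, and they did not share a direction. Dcn had 9.89, 3.65 and 45.1 CPM in siCOX7A2L cells, against 1.85, 2.48 and 11.7 CPM in siCTRL cells, while Thy1 had 0.317, 0.351 and 0.112 CPM in siCOX7A2L cells, against 0.528, 0.688 and 0.29 CPM in siCTRL cells. Pdgfra had 14.7, 21.6 and 10.2 CPM in siCOX7A2L cells, against 14.4, 14.9 and 11.4 CPM in siCTRL cells, and Lum was at 0 in 4 libraries. The part of these markers in the results was not tested. In bulk RNA, fewer cells of a type and less RNA per cell cannot be told apart.

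The messages of this one ribosome were present at very different levels per length. On the deposited TPM scale, mean levels over the 6 libraries ran from 4.10 for Mrpl1 to 207 for Mrpl52, a 50.6-fold range, around a median of 25.7 TPM. The median was 26.1 TPM for the large-subunit genes and 23.2 TPM for the small-subunit genes. After Mrpl52 came Mrpl17 (106 TPM), a protein at the tunnel exit, Mrpl12 (82.6 TPM), the stalk protein that receives translation factors, Mrpl14 (80.1 TPM), which faces the small subunit, and Mrpl58 (78.8 TPM), a peptidyl-tRNA hydrolase that became a ribosomal protein. At the low end stood Mrpl1 (4.10 TPM), the protein of the stalk where spent tRNA leaves, Mrps31 (4.11 TPM), Mrpl23 (4.32 TPM), Mrpl50 (5.97 TPM) and Mrpl32 (6.58 TPM), the last a substrate of a mitochondrial protease that matures it.

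Mrpl52 had 166, 144 and 380 TPM in siCOX7A2L cells, against 163, 122 and 269 TPM in siCTRL cells. It was first of the 78 in 5 libraries and in the remaining one, siCTRL replicate 2, it came after 1 other member. Mrpl17 had 131, 113 and 44.4 TPM in siCOX7A2L cells, against 129, 159 and 60.1 TPM in siCTRL cells. Pooled over libraries, the ranges of Mrpl52, Mrpl17, Mrpl12, Mrpl14 and Mrpl58 each overlapped that of the next. Within libraries, Mrpl52 was above Mrpl17 in all but siCTRL replicate 2. The 3 lowest members could not be ranked: Mrpl1 had 5.15, 2.99 and 1.76 TPM in siCOX7A2L cells and 4.79, 5.39 and 4.54 TPM in siCTRL cells, a spread that takes in the means of Mrps31 and Mrpl23. For Mrpl23, the pseudogene Mrpl23-ps1 was counted higher (mean count 213) than the gene (83.8), and 14.0% of the 31-base words in Mrpl23 transcripts also occur in another gene, so its level is uncertain. TPM values carry a further limit, in the row without a gene symbol. It took 44.2%, 46.3% and 53.6% of TPM in siCOX7A2L cells, against 42.5%, 41.4% and 36.9% in siCTRL cells. TPM is a share of a fixed total, so TPM values of the 2 groups are not directly comparable.

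**Figure D1:**
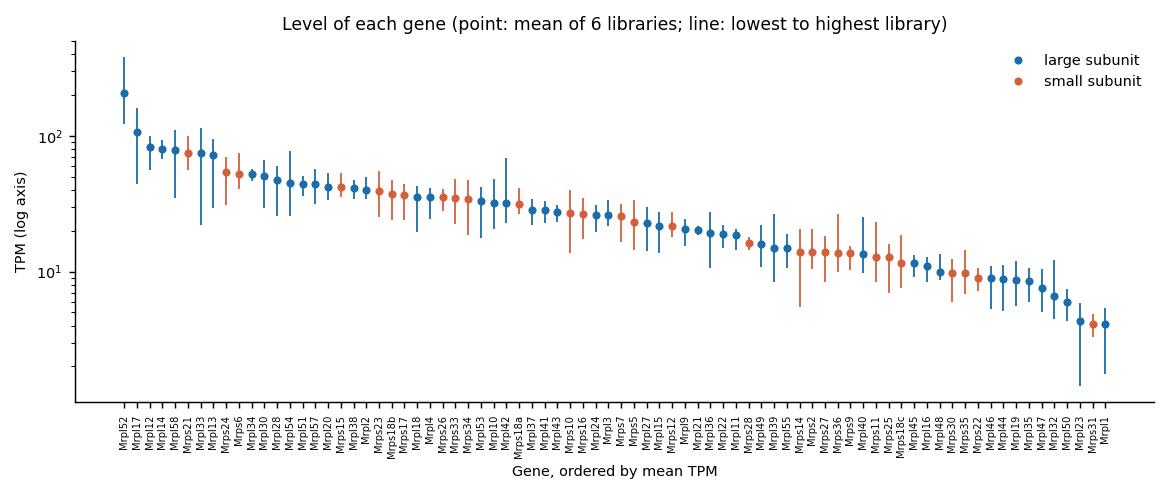
TPM of each of the 78 members on a log axis, with points for the mean of 6 libraries, lines from the lowest to the highest library, and colours for the subunit. Levels run from 4.10 TPM for Mrpl1 to 207 TPM for Mrpl52, and large- and small-subunit genes intermix along the range.

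The comparison of siCOX7A2L with siCTRL cells asks whether messages of the mitochondrial ribosome differ where the Cox7a2l message is low. No member passed the test: 0 of 78 were called higher and 0 of 78 lower at an adjusted p under 0.05 (edgeR's quasi-likelihood test, Benjamini-Hochberg over 15022 genes), against 0.433% of all tested genes called higher and 0.293% called lower. At an unadjusted p under 0.05 there were 7 members (8.97%), all higher in siCOX7A2L cells, against 17.7% of all tested genes. These were Mrpl22, Mrpl38, Mrpl52, Mrpl55 and Mrpl57 of the large subunit and Mrps21 and Mrps33 of the small subunit. DESeq2 with the same block called 0 members as well, against 4.42% of the genes with an adjusted p in that fit, and 0 of the 78 were past an adjusted p of 0.05 in the authors' deposited table, against 6.34% of the genes with an adjusted p there. The lowest adjusted p in the edgeR fit was 0.144, for Mrpl22. The labels do not say that replicates were separate cultures. With the replicate block, the p-values of the fits made here measure the spread left between libraries once differences between replicate numbers are removed. That spread may be technical.

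The differences were small and more often positive than negative. The median log2 fold change was 0.08 over the 78 members, with quartiles at -0.03 and 0.20, against 0.01 over all tested genes. With libraries left out in turn, with or without the replicate block, that median was 0.01 to 0.18. On log2 TPM in limma, where all tested genes shifted to -0.21, it was -0.19. Of the members, 53 (67.9%) had a positive log2 fold change, against 51.1% of all tested genes. Values ran from -0.47 for Mrps18c to 0.57 for Mrpl57, so no member reached a 1.5-fold difference. The 95% interval of each log2 fold change lay within 1.5-fold in both directions for 57 members (35 large, 22 small) and within 2-fold for all 78. A difference smaller than these intervals was not detectable with 3 libraries a group. All 78 genes passed the filter on low counts, so the medians cover every member.

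**Figure D2:**
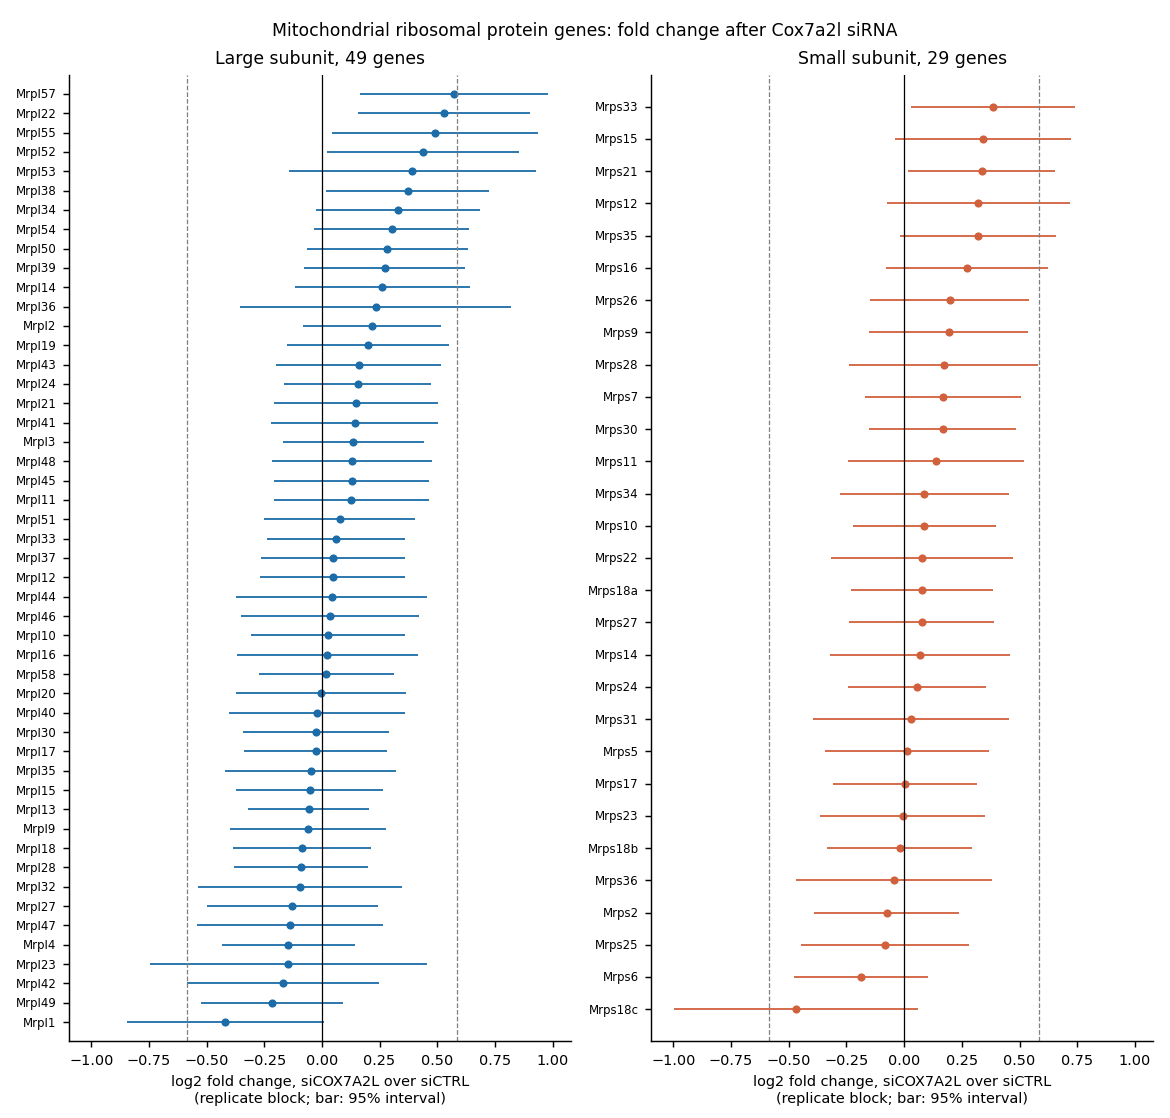
Log2 fold change (siCOX7A2L over siCTRL) of each member with its 95% interval from edgeR's quasi-likelihood fit, large subunit and small subunit in separate panels, with dashed lines at a 1.5-fold difference. The quartiles of the points are -0.03 and 0.20, and 57 of the 78 intervals stay inside the dashed lines.

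Large-subunit proteins without a bacterial counterpart made up 4 of the 5 largest positive values. Mrpl57 had 29.7, 25.7 and 37.3 CPM in siCOX7A2L cells, against 22.1, 22.3 and 17.3 CPM in siCTRL cells. The groups did not overlap, and the log2 fold change was 0.57 (SE 0.18, 95% interval 0.17 to 0.98, adjusted p = 0.146), the nearest of all members to a 1.5-fold difference. Mrpl55 had 16.3, 14.0 and 17.1 CPM in siCOX7A2L cells, against 13.2, 12.6 and 8.23 CPM in siCTRL cells (log2 fold change 0.49, SE 0.20, adjusted p = 0.241). Here too the groups did not overlap, with siCTRL replicate 3 well below the rest. Mrpl52 had 35.0, 33.4 and 164 CPM in siCOX7A2L cells, against 33.4, 29.8 and 79.5 CPM in siCTRL cells (log2 fold change 0.44, SE 0.19, adjusted p = 0.258). Its replicate 3 was far above replicates 1 and 2 in both groups, and in those 2 numbers the groups lay close together. Mrpl53 had 26.8, 23.2 and 25.2 CPM in siCOX7A2L cells, against 23.1, 26.2 and 10.9 CPM in siCTRL cells (log2 fold change 0.39, SE 0.24, adjusted p = 0.43). Only siCTRL replicate 3 of Mrpl53 stood apart. Of the 31-base words in Mrpl53 transcripts, 84.4% also occur in other genes, most often in Gm42688, so the Mrpl53 counts are uncertain. At the other end, Mrpl49 had 25.2, 26.3 and 26.7 CPM in siCOX7A2L cells, against 30.2, 30.2 and 30.5 CPM in siCTRL cells, 2 tight groups that did not overlap (log2 fold change -0.22, SE 0.14, adjusted p = 0.455). Mrpl38 had 43.2, 39.8 and 95.3 CPM in siCOX7A2L cells, against 35.2, 39.2 and 55.4 CPM in siCTRL cells (log2 fold change 0.37, SE 0.16, adjusted p = 0.26), again with a high replicate 3 in both groups. Mrpl42 had a log2 fold change of -0.17 and Mrpl50 of 0.28, and Mrpl44, an RNase III-like protein, had 0.04.

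Leaving out the replicate 2 pair turned 3 of these into calls: Mrpl57 (log2 fold change 0.75, adjusted p = 0.0101), Mrpl53 (0.68, adjusted p = 0.0362) and Mrpl52 (0.56, adjusted p = 0.0481, edgeR's quasi-likelihood test). That fit called 3 of the 78 members and 1210 genes in all. With all 6 libraries, 0 of the 78 members and 109 of 15022 tested genes were called. The calls rose over all genes and not only among the members, so the 3 calls do not set the members apart. Leaving out the replicate 1 or the replicate 3 pair called 0 members. The replicate 2 pair had the smallest differences for Mrpl57 and Mrpl53. Without the filter on low counts Mrpl57 alone of the members was called (adjusted p = 0.0197, edgeR's quasi-likelihood test), in a fit that called 1257 genes in all.

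**Figure D3:**
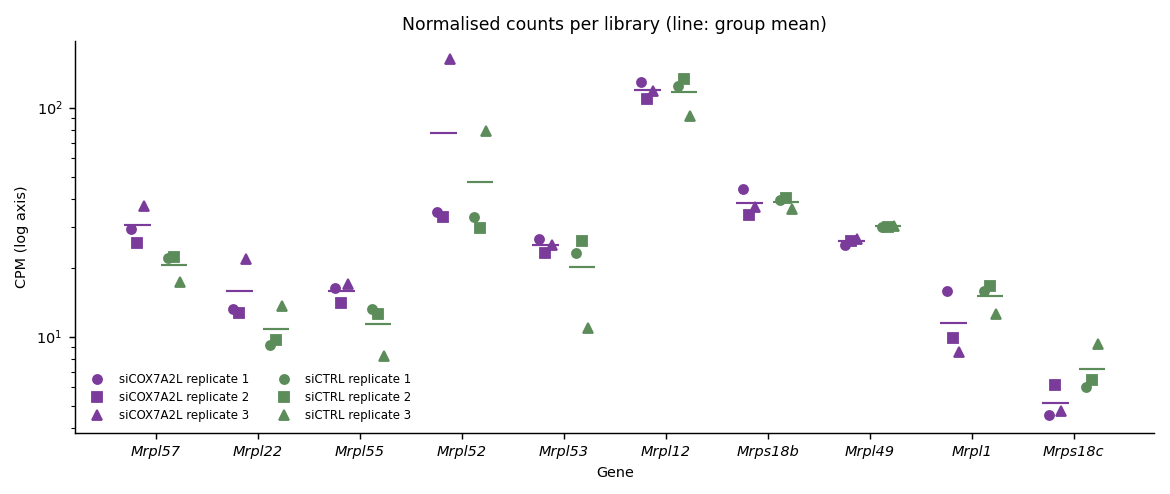
CPM (log axis) of 10 members in each library, siCOX7A2L left of siCTRL for each gene, with 1 symbol shape per replicate number and a line at the group mean. Mrpl57, Mrpl55 and Mrpl49 show groups that do not overlap, Mrpl52 and Mrpl22 show a high replicate 3 in both groups, and the groups of Mrpl12 and Mrps18b overlap.

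The proteins of the exit tunnel had values on both sides of 0. Mrpl22, which lines the tunnel, had 13.2, 12.6 and 21.8 CPM in siCOX7A2L cells, against 9.18, 9.70 and 13.7 CPM in siCTRL cells (log2 fold change 0.53, SE 0.17, 95% interval 0.15 to 0.90, adjusted p = 0.144). Each siCOX7A2L library was above the siCTRL library of its number, though replicate 3 of siCTRL was above replicates 1 and 2 of siCOX7A2L. Of the words in Mrpl22 transcripts, 29.8% also occur in other genes, most often in Gm6997. Mrpl24 had a log2 fold change of 0.16 and Mrpl45, the protein that holds the ribosome to the inner membrane, of 0.13. Mrpl23 had 7.35, 3.58 and 5.95 CPM in siCOX7A2L cells, against 5.74, 6.74 and 5.68 CPM in siCTRL cells (log2 fold change -0.15, SE 0.27), with the groups overlapping. Mrpl17 had a log2 fold change of -0.03.

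In the stalks, the stalk protein Mrpl12 had 129.9, 109 and 118 CPM in siCOX7A2L cells, against 124, 134 and 91.5 CPM in siCTRL cells (log2 fold change 0.05, SE 0.14, adjusted p = 0.901). The groups overlapped throughout, and the stalk-base proteins Mrpl10 and Mrpl11 had log2 fold changes of 0.03 and 0.13. On the tRNA exit side, Mrpl1 had 15.9, 9.90 and 8.53 CPM in siCOX7A2L cells, against 15.8, 16.6 and 12.6 CPM in siCTRL cells (log2 fold change -0.42, SE 0.19, 95% interval -0.85 to 0.01, adjusted p = 0.291). The replicate 1 libraries of Mrpl1 were level, and the other two numbers were lower in siCOX7A2L cells. Mrpl58 had a log2 fold change of 0.02, and Mrpl14 of 0.26.

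In the small subunit the most negative value of all 78 and several positive ones occurred. Mrps18c had 4.56, 6.18 and 4.72 CPM in siCOX7A2L cells, against 6.01, 6.47 and 9.27 CPM in siCTRL cells (log2 fold change -0.47, SE 0.24, 95% interval -0.997 to 0.06, adjusted p = 0.34). Each siCTRL library was above the siCOX7A2L library of its number, but the groups overlapped, and 32.8% of the words in Mrps18c transcripts also occur in another gene. Mrps18c is 1 of 3 mammalian counterparts of a single bacterial protein, and the other two did not share its value: Mrps18a had a log2 fold change of 0.08, and Mrps18b, at 44.2, 34.1 and 36.8 CPM in siCOX7A2L cells against 39.5, 40.5 and 36.2 CPM in siCTRL cells, had -0.02. Mrps6, a neighbour of this protein family on the platform, had a log2 fold change of -0.19 (adjusted p = 0.497). Mrps12 and Mrps5, whose bacterial counterparts bear on the accuracy of decoding, had 0.32 and 0.01.

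Of the small-subunit proteins with no bacterial counterpart, Mrps35 had a log2 fold change of 0.32 (adjusted p = 0.306), Mrps34 of 0.09, Mrps22 of 0.08, and Mrps27, an RNA-binding pentatricopeptide protein, of 0.08. Mrps31 was nearly level, with 7.92, 7.72 and 8.53 CPM in siCOX7A2L cells, against 7.92, 7.64 and 8.11 CPM in siCTRL cells. The small-subunit members with an unadjusted p under 0.05 were Mrps33, at 15.4, 15.9 and 30.3 CPM in siCOX7A2L cells against 12.2, 13.7 and 20.1 CPM in siCTRL cells, and Mrps21, at 19.8, 23.5 and 41.9 CPM in siCOX7A2L cells against 16.4, 18.8 and 31.6 CPM in siCTRL cells. Both were higher in siCOX7A2L cells in all 3 pairs, but their log2 fold changes of 0.39 and 0.34 had adjusted p-values of 0.245 and 0.255 in edgeR's quasi-likelihood test. Mrps30, which structures of the mammalian ribosome place in the large subunit, had 0.17, and Mrps36, known as a part of the alpha-ketoglutarate dehydrogenase complex, had -0.05.

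The subunits were set side by side by their medians and sums. The median log2 fold change was 0.05 for the large subunit (31 of 49 positive, 63.3%) and 0.08 for the small subunit (22 of 29 positive, 75.9%), a difference of -0.03. Summed over its genes, the large subunit had 1615, 1438 and 1838 CPM in siCOX7A2L cells, against 1533, 1542 and 1462 CPM in siCTRL cells. The small subunit had 834, 751 and 893 CPM in siCOX7A2L cells, against 776, 794 and 732 CPM in siCTRL cells. The ratio of large to small sums was 1.97 ± 0.0777 in siCOX7A2L cells and 1.97 ± 0.0280 in siCTRL cells (SD, n = 3 each). All members together took 0.241% ± 0.0182 of counts in siCOX7A2L cells and 0.231% ± 0.00845 in siCTRL cells (SD, n = 3 each). Moving Mrps18a and Mrps30 to the large subunit and leaving out Mrps36, as structures place them, gave a large minus small difference of -0.02.

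The members were also sorted by whether the bacterial ribosome has a counterpart. The 29 large-subunit members with a bacterial counterpart had a median log2 fold change of -0.01, with 14 positive, and the 20 without one had a median of 0.14, with 17 positive. In the small subunit the 18 members with a counterpart and the 11 without one both had a median of 0.08, with 14 and 8 positive. These medians are descriptions with no test.

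The positive median of the members did not hold in every pair of libraries. The median log2 difference within a pair (siCOX7A2L minus siCTRL of the same number) was 0.11 for replicate 1, -0.07 for replicate 2 and 0.27 for replicate 3, with 60, 30 and 59 of the 78 members positive. Over all tested genes the pair medians were 0.00, 0.00 and 0.01. Both subunits followed the same course, at 0.08, -0.07 and 0.28 for the large and 0.15, -0.06 and 0.25 for the small subunit. Of the members, 20 were higher in siCOX7A2L cells in all 3 pairs (25.6%, against 21.2% of all tested genes) and 5 were lower in all 3 (6.41%, against 20.8%). Between groups without regard to pairs, 5 members did not overlap and were higher in siCOX7A2L cells (6.41%, against 7.96% of all tested genes), and 2 did not overlap and were lower (2.56%, against 7.62%). The higher ones were Mrpl2, Mrpl34, Mrpl50, Mrpl55 and Mrpl57, and the lower ones Mrpl4 and Mrpl49, all of the large subunit.

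**Figure D4:**
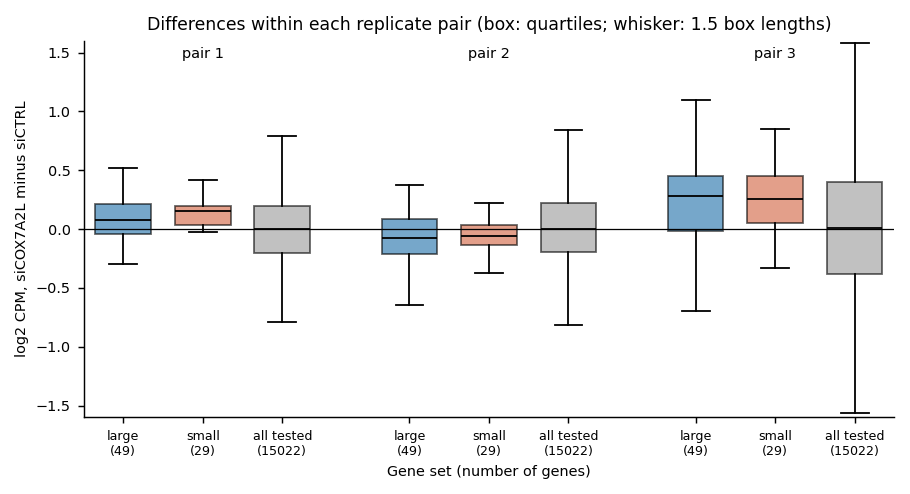
Log2 CPM of the siCOX7A2L library minus the siCTRL library of the same replicate number, as boxes (median and quartiles, whiskers to 1.5 box lengths) for the 49 large-subunit genes, the 29 small-subunit genes and all 15022 tested genes. The medians of both subunits lie above 0 for replicates 1 and 3 (0.28 and 0.25 for replicate 3) and below 0 for replicate 2 (-0.07 and -0.06).

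Replicate 3 was compared with replicates 1 and 2 within each group. In siCOX7A2L cells the median member of replicate 3 lay 0.16 (log2 CPM) above the mean of replicates 1 and 2, and in siCTRL cells 0.08 below it (-0.08). Regardless of sign, the median distance was 0.39 in siCOX7A2L cells and 0.33 in siCTRL cells, against 0.44 and 0.38 over all tested genes. The distance had the same sign in both groups for 55 members (70.5%), against 72.7% of all tested genes. In replicate 3 of both groups, 12 members (7 large, 5 small, 15.4% of the 78) were over 0.5 higher, against 13.2% of all tested genes, and 6 (3 large, 3 small, 7.69%) were over 0.5 lower, against 10.2%. These shares were near those of all genes. Named after their values were seen, Mrpl52 was 2.26 higher in siCOX7A2L cells and 1.33 higher in siCTRL cells, and Mrpl54 was 1.71 and 1.40 higher. Mrpl39 was 1.24 higher in siCOX7A2L cells and 1.22 higher in siCTRL cells. The low ones included Mrpl33 (-1.17 in siCOX7A2L cells, -1.18 in siCTRL cells) and Mrpl13 (-1.07 in siCOX7A2L cells, -0.98 in siCTRL cells). The genes of mitochondrial DNA had a median of 2.74 in siCOX7A2L cells and 3.22 in siCTRL cells by the same measure. The part of replicate 3's mitochondrial messages in these values was not tested. Without the replicate 3 pair the median log2 fold change of the 78 members was 0.03, against 0.08 with it.

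**Figure D5:**
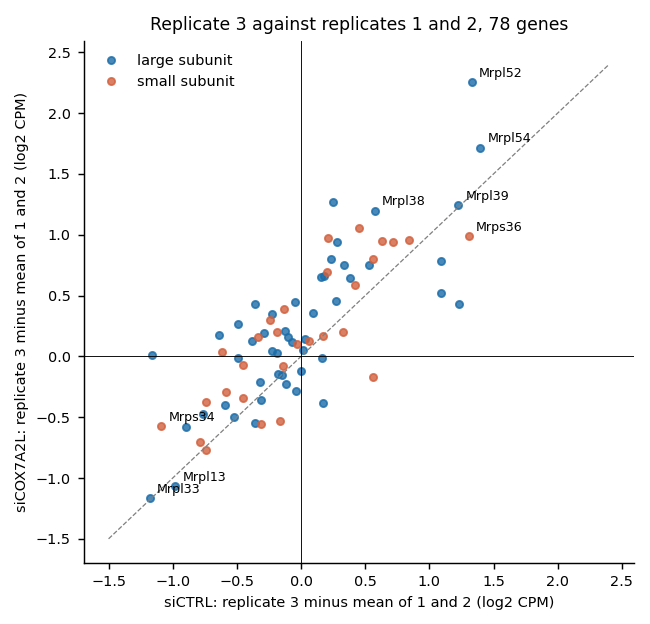
Log2 CPM of replicate 3 minus the mean of replicates 1 and 2, siCOX7A2L against siCTRL, for each member. The dashed line marks equal values in both groups, and points run from Mrpl33 (-1.17 in siCOX7A2L cells, -1.18 in siCTRL cells) to Mrpl52 (2.26 in siCOX7A2L cells, 1.33 in siCTRL cells).

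Levels and differences were also set beside the promoter words. The 26 members with the ETS word had a median level of 34.0 TPM, against 15.9 TPM for the 43 matched members without it. Their median log2 fold change was 0.13, with 20 of 26 positive, against 0.04 for those without it, with 27 of 43 positive. The ETS word stood in 34.9% of large-subunit and 42.3% of small-subunit members with a window. The Nrf1 word stood in 16.3% and 3.85%, and the Yy1 word in 9.30% and 15.4%. No test was made of these splits.

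Lists of genes that work with the mitochondrial ribosome had no called member in edgeR's quasi-likelihood test, and DESeq2 with the replicate block called 1 of their genes, mt-Rnr2. Of the 5 mitochondrial ribosomal proteins with other symbols, the median log2 fold change was 0.04, from -0.08 for the GTP-binding protein Dap3 to 0.15 for Chchd1. The 25 assembly factors had a median of 0.02, with the RNA-binding protein Ngrn at 0.47 and Fastkd2 at -0.49 the only ones with an unadjusted p under 0.05 (adjusted p = 0.192 and 0.246). The 15 tested translation factors had a median of 0.09 and 2 genes at an unadjusted p under 0.05, the recycling factor Gfm2 at 0.38 (adjusted p = 0.266) and Oxa1l, which inserts the new proteins into the inner membrane, at -0.48 (adjusted p = 0.167). The 8 genes of mitochondrial transcription had a median of 0.20, with 7 positive and 1 at an unadjusted p under 0.05, Mterf1b. Mterf1b was low, at 1.71, 1.69 and 0.561 CPM in siCOX7A2L cells, against 0.594, 0.895 and 0.348 CPM in siCTRL cells. The large-subunit ribosomal RNA mt-Rnr2 had a log2 fold change of 0.50 and was higher in all 3 pairs (adjusted p = 0.101 in edgeR, 0.0149 in DESeq2), while the small-subunit RNA mt-Rnr1 had 0.10. Both are measured after depletion of ribosomal RNA, whose efficiency for these RNAs was not tested. The 13 protein genes of mitochondrial DNA and these 2 RNAs together had a median of -0.04, over pair medians of 0.18, 0.17 and -0.64. Of the protein genes, mt-Atp6 had an unadjusted p under 0.05, with a log2 fold change of -0.37 (adjusted p = 0.278). At an unadjusted p under 0.05 were 8% of the assembly factors, 13.3% of the translation factors and 12.5% of the transcription genes. The share was 13.3% for the genes of mitochondrial DNA with their 2 RNAs. Each was below the 17.7% of all tested genes.

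The proteins of the cytosolic ribosome had mostly negative values. The median log2 fold change of the 79 tested was -0.14, 64 were negative and 15 positive, and siCOX7A2L was lower in all 3 pairs for 41 (51.9%, against 20.8% of all tested genes). None was called in edgeR's quasi-likelihood test, and at an unadjusted p under 0.05 there were 11 (13.9%, against 17.7% of all tested genes), all lower, led by Rpl5 (log2 fold change -0.64, adjusted p = 0.0576) and Rps3 (-0.54, adjusted p = 0.0829). DESeq2 with the replicate block, which called 495 genes in all, called these 2, at adjusted p-values of 0.0104 and 0.0096. The difference between the 2 ribosomes was not tested.

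Counting limits touch some members. By 31-base words of GENCODE M21 transcripts, 54 of the 78 share at least 1 word with another gene. Over 10% of the words are shared with other genes in 18. Among them are Mrps34 (35.6%, most often with Nme3) and Mrpl27 (35.5%, most often with Gm6304). Exons of 8 members overlap an exon of another gene on the same strand, and those of 28 overlap one on the opposite strand. Whether the counting used strand is not stated in the sources used here. Without the 18 members that share over 10% of their words, the median log2 fold change was 0.08, the value with them.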

How the data were processed

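RNA-seq was made from total RNA of C2C12 cells, 3 siCOX7A2L and 3 siCTRL libraries. Trim Galore 0.6.4, the quantifier Salmon 0.13.1, DESeq2 1.30.1 and build mm39 are listed per the submitters' processing notes. No source used here names the annotation release. Estimated counts per gene, deposited without scaling to depth, were rounded here to whole numbers. TPM values, which account for transcript length, were also deposited by the authors. The authors' deposited result table holds, per its file headers, scaled counts (a signal divided by 1 size factor per library), log2 fold changes, their standard errors and test statistics (scores), p-values and adjusted p-values. A row without a gene symbol, holding 5.81% to 11.1% of counts, was kept in the library totals and in the counts passed to the fit.

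Genes kept by filterByExpr (15022) were tested in edgeR 4.0.16 (R 4.3.3) with TMM factors, the replicate number as a block, glmQLFit and glmQLFTest (two-sided), and Benjamini-Hochberg adjustment over all of them at 0.05. The 95% intervals hold for 1 gene at a time and are not adjusted. A plan made from the labels foresaw whole counts, and the estimated counts were used in the same test. DESeq2 1.42.0 and limma 3.58.1 (log2 TPM) served as alternatives. The fit was also run on simulated counts, with the same spread set for every gene and larger differences than the members had. That run does not show how the fit performs on differences as small as these. CPM values use TMM factors, and log2 CPM a prior count of 2; log2 TPM used a pseudocount of 0.5. Same-numbered libraries correlated at 0.53, 0.45 and 0.67 in their deviations from group means (highest with another number 0.43, 0.44 and -0.55), so the numbers were taken as pairs, clearly only for replicate 3.

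The members and lists were chosen with earlier results of these data known. Members were named by these rules: called members, the 5 largest positive and 5 largest negative log2 fold changes, the 5 highest and 5 lowest mean TPM, an unadjusted p under 0.01, and a set chosen for distinct roles. Others named, among them those at an unadjusted p under 0.05, those whose groups did not overlap and those apart in replicate 3, were picked after their values were seen. The bacterial counterparts were assigned from general knowledge of ribosomal proteins. Coordinates and promoter sequences are RefSeq's (GRCm38.p6), a build other than the one in the processing notes, and shared sequence was counted in GENCODE M21 transcripts. A member's median SE was 0.16 on the log2 scale, against 0.17 over all tested genes. The part of depth in it was not tested.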

Additional observations from a re-analysis of the deposited data

How the results depend on the processing

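Libraries were left out singly, with and without the block, and as replicate pairs with the block. With the block, leaving out 1 library takes its partner out of the comparison, so such fits nearly repeat the fit without the pair. Without siCOX7A2L replicate 2 the fit called 1207 genes, against 1210 without the replicate 2 pair. No member was called lower under any of the 22 alternative fits. Members were called higher in 2 kinds of fit: without the filter on low counts (1) and with libraries left out (0 to 3, highest without replicate 2). The count of called genes over all genes was 109 in the report and moved more than that of the members. It was 495 with DESeq2 and the block, 58 with library size alone and 14 on log2 TPM in limma. It was 1257 without the filter and 197 with replicate 3 as the only blocking term. With libraries left out it was 0 to 2 without the block and up to 1210 with it. Without the replicate block 2 genes and 0 members were called. In that fit 1 of the 78 members (Mrpl57) had an unadjusted p under 0.05 in edgeR's quasi-likelihood test, against 6.35% of all tested genes. The members' median log2 fold change stayed at 0.08. That median was 0.01 to 0.18 with libraries left out, and the large minus small difference was -0.088 to 0.070. On log2 TPM the median of all tested genes shifted to -0.21, and the members' medians were -0.19 for all 78, -0.19 for the large and -0.19 for the small subunit. The row without a gene symbol took 44.2% to 53.6% of TPM in siCOX7A2L libraries, against 36.9% to 42.5% in siCTRL libraries. Its part in that shift and the causes of the other changes were not tested.

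The median of all tested genes was itself -0.04 with library size alone and -0.21 on log2 TPM. Single named members changed sign without being called. With library size alone these were Mrpl10 (-0.020), Mrpl44 (-0.0022), Mrpl58 (-0.025), Mrps31 (-0.015) and Mrps5 (-0.035). On log2 TPM they were Mrpl10 (-0.12), Mrpl11 (-0.079), Mrpl12 (-0.25), Mrpl14 (-0.012), Mrpl24 (-0.11), Mrpl44 (-0.22), Mrpl45 (-0.14), Mrpl58 (-0.19), Mrps18a (-0.20), Mrps22 (-0.19), Mrps27 (-0.19), Mrps30 (-0.092), Mrps31 (-0.22), Mrps34 (-0.14), Mrps35 (-0.033) and Mrps5 (-0.053). With libraries left out the log2 fold change of the large-subunit members ranged from -0.25 to 0.23 for Mrpl10, -0.10 to 0.31 for Mrpl11, -0.12 to 0.21 for Mrpl12, -0.30 to 0.17 for Mrpl17, -0.43 to 0.21 for Mrpl23, -0.38 to 0.30 for Mrpl32, -0.48 to 0.26 for Mrpl42, -0.15 to 0.22 for Mrpl44, -0.10 to 0.31 for Mrpl45, -0.49 to 1.28 for Mrpl52 and -0.13 to 0.16 for Mrpl58. For the small subunit it ranged from -0.060 to 0.60 for Mrps12, -0.0049 to 0.19 for Mrps18a, -0.13 to 0.092 for Mrps18b, -0.034 to 0.23 for Mrps22, -0.094 to 0.18 for Mrps27, -0.064 to 0.29 for Mrps30, -0.018 to 0.049 for Mrps31, -0.23 to 0.30 for Mrps34, -0.53 to 0.47 for Mrps36 and -0.23 to 0.19 for Mrps5. These ranges mix fits with and without the replicate block. Of 726 values of the 33 named members under alternatives, 9 were called. Some of those fits nearly repeat each other, so the 9 are not separate results. The share of values called over all genes was not counted.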
